A study of Homo sapiens with 12 samples.

Results

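The genes described here are 10 regulators and effectors of the integrated stress response: the transcription factors ATF4, ATF3, ATF5, DDIT3 and CEBPB, the pseudokinase TRIB3, the glutathione-degrading enzyme CHAC1, the nutrient sensor SESN2, and the secreted proteins STC2 and INHBE. They were chosen by name, by looking for each symbol among the symbols of the deposited entries. Of the 10, 9 matched an entry, and all 9 passed the minimum mean of 10 normalised counts over the 12 libraries, among 14225 named entries that did. CEBPB was not analysed here. INHBE passed only through its scrambled libraries, since the 9 libraries of the other groups held 13 reads in all. That passage needed a high scrambled level, so INHBE is described by its reads alone, with no test drawn, and the counts and medians below are over the other 8 genes.

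RNA was sequenced from TC-71, a human cell line of Ewing sarcoma, a tumour of bone and soft tissue driven by the EWS-FLI1 fusion. The 4 groups had 3 libraries each. Cells given YK-4-279, a compound made to keep EWS-FLI1 from binding the RNA helicase DHX9, were treated for 16 hours at a dose labelled 2 mM, a unit that the files give no means to check. Cells transfected against DHX9 (siDHX9) and cells transfected with a scrambled control were both collected at 48 hours after transfection with a lipid reagent. Cells given the solvent DMSO for 16 hours were the control of the drug. All 12 libraries came from the same line, labelled WT and grown in the same medium, and the labels call the 3 libraries of a group biological replicates, so p values measure the spread between cultures of 1 line. The protocols name siRNAs and the design text shRNAs, and neither gives a sequence of them.

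The integrated stress response is a pathway in which kinases that sense amino acid shortage, unfolded proteins, double-stranded RNA or haem shortage phosphorylate the translation initiation factor eIF2. Most translation then slows while that of ATF4 increases, and ATF4 pairs with other bZIP factors to switch on genes of amino acid supply, redox balance and, if stress lasts, cell death. ATF4 is controlled mainly in translation, so its mRNA level is an incomplete reading of its activity, whereas mRNAs such as CHAC1, TRIB3 and DDIT3 are commonly read as its output.

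Library totals, in units of 1e6 reads, ran from 48.3 to 53.7 with YK-4-279, from 46.9 to 49.4 in siDHX9, from 47.8 to 51.0 in scrambled and from 38.6 to 65.5 in DMSO libraries. The entry that joins DHX9 with its neighbour NPL held 19342, 21178 and 21304 normalised counts in siDHX9 libraries, against 30287, 33422 and 34357 in scrambled libraries (log2 change -0.66 ± 0.07 SE, limma adjusted p = 4.54e-05). The siDHX9 libraries were thus all below the scrambled libraries for the targeted gene. Ribosomal RNA took 7.90 to 9.98% of reads with YK-4-279, 1.76 to 3.59% in siDHX9, 3.52 to 5.20% in scrambled and 4.95 to 5.44% in DMSO libraries. All 7 Ewing sarcoma markers examined were detected, with summed levels of 60293 to 64766 normalised counts with YK-4-279, 53328 to 62663 in siDHX9, 52280 to 55072 in scrambled and 53625 to 56041 in DMSO libraries. The 8 markers of blood, epithelial, endothelial and muscle cells summed to at most 28.9 normalised counts in any library, and CD3E was at 0 in all 12. The part of the ribosomal RNA share in the results below was not tested.

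Scrambled replicates 1 and 2 stood above every other library for 7 of the 8 genes tested (not for ATF5), while replicate 3 lay nearer to the siDHX9 libraries. The share of all tested entries with this order was not counted. Of the 8 genes tested, 5 fell in siDHX9 relative to scrambled libraries (ATF3, ATF4, CHAC1, SESN2 and STC2), where 7.97% of all tested entries fell. Relative to DMSO, 7 of the 8 rose in scrambled libraries, where 9.7% of all tested entries rose. In YK-4-279 relative to DMSO libraries 0 of the 8 passed in limma, where 13.8% of all tested entries did, although 1 (ATF3) had an unadjusted p under 0.05, with 0 called by edgeR and 1 by DESeq2. Levels below are deposited normalised counts for replicates 1, 2 and 3 in that order. The SE and interval of each change use a spread estimated over all 4 groups, also those outside the comparison. Changes are log2 fold changes ± SE from limma on log2(normalised count + 1), which understates the change of low genes, with Benjamini-Hochberg adjustment over all 14225 entries, and a gene is said to have risen or fallen at an adjusted p under 0.05.

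**Figure D1:**
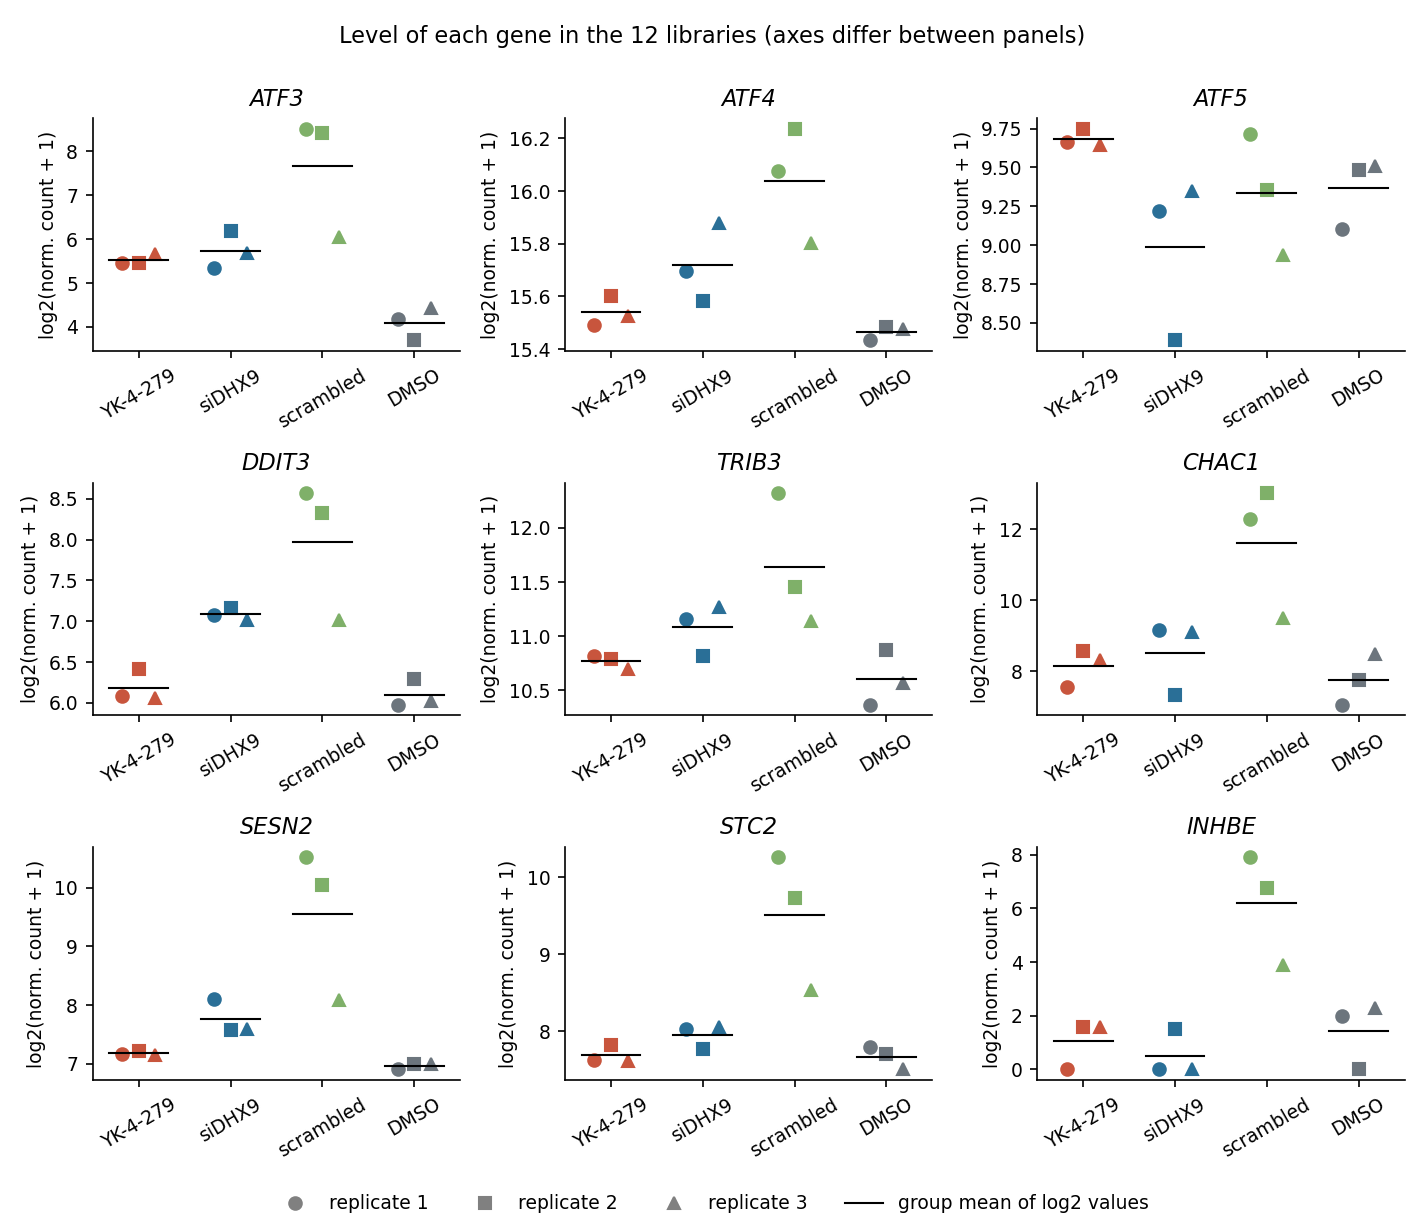
Level of each of the 9 genes as log2(normalised count + 1) in the 12 libraries, 1 panel per gene with its own axis; symbols mark the replicate number and lines the group mean of the log2 values. Scrambled replicate 3 (triangle) is the lowest scrambled library in all 9 panels, and scrambled replicate 1 (circle) is the highest in 7.

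CHAC1 encodes a gamma-glutamylcyclotransferase that breaks down glutathione, and is a target of ATF4. Its entry lies on chromosome 15 from 41245669 to 41248717 (hg19). CHAC1 had 188, 378 and 314 normalised counts in YK-4-279 libraries, 566, 158 and 552 in siDHX9 libraries, 5052, 8311 and 720.25 in scrambled libraries and 131, 214.5 and 358 in DMSO libraries. Group means were 293 ± 96.7 with YK-4-279, 425 ± 232 in siDHX9, 4694 ± 3808 in scrambled and 235 ± 115 in DMSO libraries (SD, n = 3 each). All 3 scrambled libraries exceeded every other library, but replicate 2 held 11.5 times the level of replicate 3. The other 3 groups overlapped one another. CHAC1 fell in siDHX9 relative to scrambled libraries (log2 change -3.08 ± 0.72, limma adjusted p = 0.0128) and rose in scrambled relative to DMSO libraries (3.84 ± 0.72, limma adjusted p = 0.0031). These comparisons share the scrambled libraries. The fall was not called when scrambled replicate 1 (-2.73, adjusted p = 0.0564), scrambled replicate 2 (-2.37, adjusted p = 0.0534) or both (-0.97, adjusted p = 0.498) were left out, nor when only the 6 libraries compared were fitted (adjusted p = 0.0631). The rise over DMSO was not called without both replicates (adjusted p = 0.251). In bulk RNA, more cells that express a gene and more of its RNA per cell cannot be told apart. The rise of CHAC1 also stands between groups that differ in transfection, reagent and time in culture, which cannot be told apart.

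The promoter windows of CHAC1, ATF3, SESN2 and STC2 are shown because these genes fell in siDHX9 and rose in scrambled libraries, with larger changes than ATF4, the other gene called in both, and because ATF4 is known to bind DNA elements with the core TGATGNAA (the CARE core) near its targets. Each is the 250 bases before the annotated start in the RefSeq promoter table (GRCh38.p14), written 5′ to 3′ on the strand of the gene, and capitals mark matches to the core on either strand. Coordinates are GRCh38 here and hg19 everywhere else.
CHAC1 (chr15:40953221-40953470, plus strand): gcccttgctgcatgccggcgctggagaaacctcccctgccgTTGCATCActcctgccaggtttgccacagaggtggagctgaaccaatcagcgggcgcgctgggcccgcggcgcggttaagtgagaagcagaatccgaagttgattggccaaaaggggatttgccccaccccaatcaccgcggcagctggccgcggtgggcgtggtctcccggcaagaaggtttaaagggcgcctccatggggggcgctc
ATF3 (chr1:212565157-212565406, plus strand, the first of its windows): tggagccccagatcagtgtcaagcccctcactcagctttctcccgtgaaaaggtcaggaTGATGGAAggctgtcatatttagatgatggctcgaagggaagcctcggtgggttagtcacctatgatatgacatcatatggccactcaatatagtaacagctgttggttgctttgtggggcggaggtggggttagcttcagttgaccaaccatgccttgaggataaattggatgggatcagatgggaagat
SESN2 (chr1:28259268-28259517, plus strand): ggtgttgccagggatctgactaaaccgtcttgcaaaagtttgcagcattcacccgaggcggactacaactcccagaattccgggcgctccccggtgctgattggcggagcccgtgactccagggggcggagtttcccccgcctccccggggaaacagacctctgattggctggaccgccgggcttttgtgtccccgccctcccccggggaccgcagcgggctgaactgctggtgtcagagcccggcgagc
STC2 (chr5:173328415-173328664, minus strand): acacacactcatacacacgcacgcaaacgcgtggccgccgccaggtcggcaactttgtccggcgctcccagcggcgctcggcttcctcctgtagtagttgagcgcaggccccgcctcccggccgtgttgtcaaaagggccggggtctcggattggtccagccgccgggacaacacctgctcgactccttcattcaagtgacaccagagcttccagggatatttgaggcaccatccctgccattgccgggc
The table has 17 windows of this length for 9 of the 10 genes, CEBPB included and INHBE not, and the core was found in 2 of the 17. The 2 windows of ATF4 hold no match. CHAC1 holds TTGCATCA, which is the core on the opposite strand, 209 to 202 bases before its start. ATF3 holds TGATGGAA on its own strand, 191 to 184 bases before its start. Over all 35116 windows of this length, 1104 (3.14%) hold the core, and no match says only that these letters are not in the window.

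ATF4, the bZIP factor at the centre of the pathway, was covered by 35455 to 83522 reads in each library, and its called changes were the smallest among the 8 genes tested. The gene lies on chromosome 22 from 39916564 to 39918690. It had 46081, 49726 and 47109 normalised counts in YK-4-279 libraries, 53159.9, 49043 and 60243 in siDHX9 libraries, 69022, 77236 and 57171 in scrambled libraries and 44224, 45812 and 45526 in DMSO libraries. Scrambled replicates 1 and 2 were above all other libraries, while replicate 3 lay inside the siDHX9 range. Every library of the other 3 groups was above every DMSO library. ATF4 rose in scrambled relative to DMSO libraries (0.57 ± 0.10, limma adjusted p = 0.0018) and fell in siDHX9 relative to scrambled libraries (-0.32 ± 0.10, limma adjusted p = 0.042). The fall is near the threshold and was called under 10 of 24 alternatives, with adjusted p values from 0.0053 to 0.729. With YK-4-279 the change was 0.08 ± 0.10 (95% interval -0.14 to 0.29, limma adjusted p = 0.653).

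ATF3, a bZIP factor induced early in many stress responses, was the 1 gene of the 8 with an unadjusted p under 0.05 for the drug. Its entry is on chromosome 1 from 212738676 to 212794118. It had 43.2, 43.2 and 49.4 normalised counts in YK-4-279 libraries, 39.3, 71.3 and 50.8 in siDHX9 libraries, 366, 340.3 and 64.8 in scrambled libraries and 17.2, 11.9 and 20.54 in DMSO libraries. All 9 libraries of the other 3 groups were above all 3 DMSO libraries, and scrambled replicate 3 lay within the siDHX9 range. ATF3 rose in scrambled relative to DMSO libraries (3.56 ± 0.50, limma adjusted p = 0.000515), and this call held without both scrambled replicates 1 and 2 (adjusted p = 0.0385). The siDHX9 and DMSO groups differ in transfection and collection time as well as in the knockdown. ATF3 also rose in siDHX9 relative to DMSO libraries (1.63 ± 0.50, limma adjusted p = 0.042), a call kept under 11 of 24 alternatives. It fell in siDHX9 relative to scrambled libraries (-1.92 ± 0.50, limma adjusted p = 0.0212), but not when scrambled replicate 1 (adjusted p = 0.0931), scrambled replicate 2 (0.0849), both (0.748), siDHX9 replicate 1 or siDHX9 replicate 3 was left out, or when only the 6 libraries compared were fitted (0.0871). With YK-4-279 the change was 1.43 ± 0.50 (95% interval 0.35 to 2.51), higher in 3 of 3 libraries, and missed the threshold with a limma adjusted p of 0.0744. DESeq2 called it (adjusted p = 0.0243), edgeR did not (0.119), and limma on the 6 drug and DMSO libraries did (0.00583).

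DDIT3, also named CHOP, is a bZIP factor that promotes cell death under lasting stress. The entry, on chromosome 12 from 57910372 to 57914302, overlaps that of MARS, which averaged 25716 normalised counts, and the values of DDIT3 are uncertain as far as the counting shared reads between them. DDIT3 had 67.0, 84.5 and 65.5 normalised counts in YK-4-279 libraries, 133, 143 and 129 in siDHX9 libraries, 379, 319 and 129 in scrambled libraries and 61.9, 77.5 and 64.2 in DMSO libraries. Scrambled replicate 3 lay within the siDHX9 range, and every transfected library was above every library of the YK-4-279 and DMSO groups. DDIT3 rose relative to DMSO both in siDHX9 (0.99 ± 0.30, limma adjusted p = 0.0416) and in scrambled libraries (1.87 ± 0.30, limma adjusted p = 0.00123). Both of these groups differ from DMSO in transfection and collection time. The call for siDHX9 was kept under 14 of 24 alternatives and was lost when any 1 library of the siDHX9, YK-4-279 or DMSO groups was left out. Between siDHX9 and scrambled libraries the change was -0.88 ± 0.30 and did not pass (limma adjusted p = 0.0594), whereas edgeR (0.0266) and DESeq2 (0.00527) called it.

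ATF5, a bZIP factor that is also controlled in translation, did not follow the other genes tested. The entry, on chromosome 19 from 50431959 to 50437193, overlaps one that joins AKT1S1, IL4I1 and NUP62 and averaged 10488 normalised counts, with the same uncertainty. It had 808.5, 859.6 and 799.9 normalised counts in YK-4-279 libraries, 596, 334 and 652 in siDHX9 libraries, 839, 654 and 489 in scrambled libraries and 551, 716 and 727 in DMSO libraries. The YK-4-279 libraries were all above the DMSO libraries, and the siDHX9, scrambled and DMSO libraries overlapped. No comparison passed (limma adjusted p = 0.382 with YK-4-279, 0.304 for siDHX9 against scrambled, 0.941 for scrambled against DMSO and 0.282 for siDHX9 against DMSO). A fit of the 6 drug and DMSO libraries alone called the difference of 0.32 with YK-4-279 (adjusted p = 0.0408).

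TRIB3, a pseudokinase that binds ATF4 and dampens it, had 1801, 1769 and 1662 normalised counts in YK-4-279 libraries, 2279, 1807 and 2472 in siDHX9 libraries, 5115, 2804 and 2262 in scrambled libraries and 1319.8, 1872 and 1522 in DMSO libraries. The gene is on chromosome 20 from 361273 to 378205. Scrambled replicate 1 alone stood far from the rest, and replicate 3 lay within the siDHX9 range. TRIB3 rose in scrambled relative to DMSO libraries (1.04 ± 0.23, limma adjusted p = 0.00728). The change between siDHX9 and scrambled libraries, -0.56 ± 0.23, did not pass (limma adjusted p = 0.104), while DESeq2 called it (0.0288).

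SESN2, a sestrin that senses leucine and restrains the growth kinase complex mTORC1, had 143, 148 and 141 normalised counts in YK-4-279 libraries, 275, 188 and 191 in siDHX9 libraries, 1468, 1064 and 271 in scrambled libraries and 119, 126 and 126 in DMSO libraries. SESN2 is on chromosome 1 from 28585963 to 28609001. The YK-4-279 and DMSO libraries each kept within a few percent of their means, and scrambled replicate 3 lay just under the highest siDHX9 library. SESN2 rose in scrambled relative to DMSO libraries (2.60 ± 0.42, limma adjusted p = 0.0013), also without both scrambled replicates 1 and 2 (adjusted p = 0.0292). It fell in siDHX9 relative to scrambled libraries (-1.80 ± 0.42, limma adjusted p = 0.0131), but not when scrambled replicate 1 (0.057), scrambled replicate 2 (0.054) or both (0.469) were left out, or in the 6 libraries alone (0.0786).

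STC2, stanniocalcin 2, is a secreted glycoprotein that is induced by unfolded proteins. The entry lies on chromosome 5 from 172741726 to 172756507. It had 197, 226 and 194 normalised counts in YK-4-279 libraries, 262, 218 and 266 in siDHX9 libraries, 1224, 849 and 372 in scrambled libraries and 222, 209 and 181 in DMSO libraries. All 3 scrambled libraries were above every other library, replicate 3 by the least. STC2 fell in siDHX9 relative to scrambled libraries (-1.55 ± 0.30, limma adjusted p = 0.00442), and the call was kept when any 1 library was left out and in the 6 libraries alone (0.0439), but not without both scrambled replicates 1 and 2 (-0.59, adjusted p = 0.124). It rose in scrambled relative to DMSO libraries (1.84 ± 0.30, limma adjusted p = 0.00129), and without both replicates as well (adjusted p = 0.0411).

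INHBE encodes the beta E subunit of the activins, secreted factors of the TGF-beta family, and had 7 reads or fewer in each of the 3 groups other than scrambled. It is on chromosome 12 from 57846106 to 57853063. It had 0, 2 and 2 reads in YK-4-279 libraries, 0, 2 and 0 in siDHX9 libraries, 264, 116 and 14 in scrambled libraries and 4, 0 and 3 in DMSO libraries. Every scrambled library was above every other library. Summed over libraries and scaled for depth, the level in siDHX9 libraries was 0.00543 times that in scrambled libraries (2 against 394 reads). Such ratios pool the libraries of a group and hide the spread among the scrambled libraries. The level in scrambled libraries was 55.1 times that in DMSO libraries (394 against 7 reads). The ratio of YK-4-279 to DMSO libraries was 0.613 (4 against 7 reads), too few reads to tell a change from none.

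**Figure D2:**
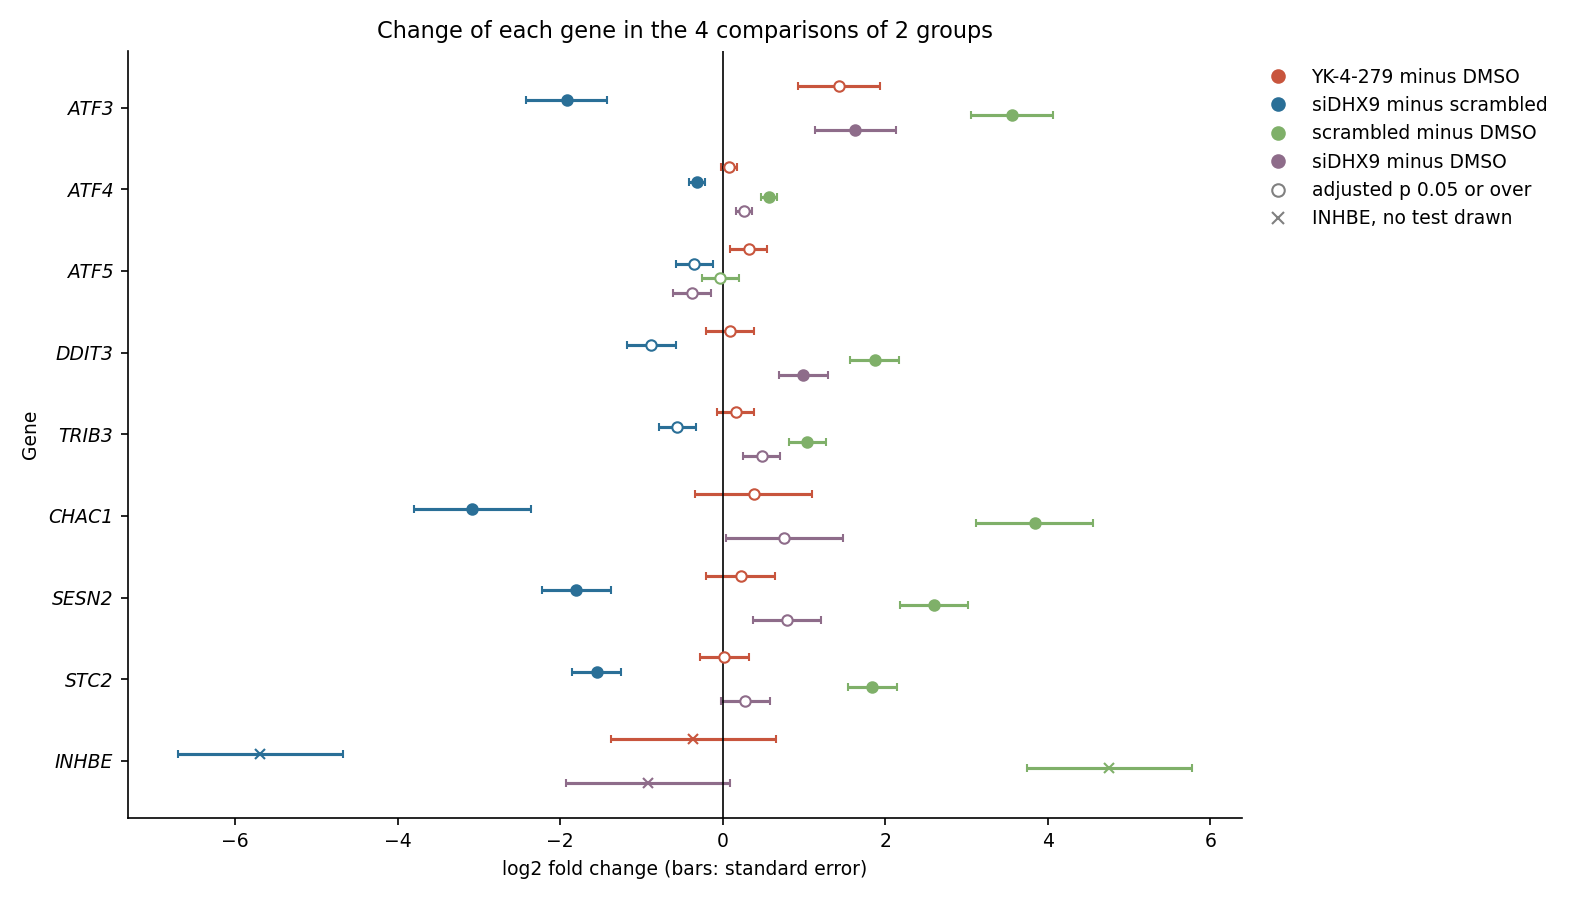
Log2 fold change of each of the 9 genes (rows) in the 4 comparisons of 2 groups, from limma, with bars for the standard error; filled points have an adjusted p under 0.05, and crosses mark INHBE, for which no test is drawn. Of the 8 genes tested, the scrambled minus DMSO points (green) lie right of 0 for all but ATF5, the siDHX9 minus scrambled points (blue) lie left of 0, and the YK-4-279 points (red) are open.

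Over the 8 genes, siDHX9 minus scrambled gave a median log2 change of -1.22, against 0.00 over all tested entries. In 2 genes (CHAC1 and STC2) all siDHX9 libraries were below all scrambled libraries, where 14.4% of tested entries were. The count of 5 genes that fell was 1 (STC2) with scrambled replicate 1 or 2 left out and 7 with scrambled replicate 3 left out. Over all 14225 tested entries, falls went from 1134 to 580, 652 and 1285 with scrambled replicate 1, 2 or 3 left out. With both 1 and 2 left out, the fit assumes that the lone scrambled library varies like the other groups. With scrambled replicate 1, 2, 3, or both 1 and 2 left out, the median change was -0.88, -1.08, -1.70 and -0.19.

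The 3 scrambled libraries differed among themselves in the level of these genes. The SD of the log2 level over the 3 scrambled libraries was 1.86 for CHAC1, 1.40 for ATF3, 1.29 for SESN2, 0.88 for STC2 and 0.83 for DDIT3, against a median of 0.17 over all tested entries. Each of these 5 was above that of at least 97.9% of tested entries. TRIB3 (0.61), ATF5 (0.39) and ATF4 (0.22) were less spread. The mean of scrambled replicates 1 and 2 was 12.4 times replicate 3 for INHBE, 9.28 times for CHAC1, 5.45 times for ATF3, 4.67 times for SESN2, 2.78 times for STC2 and 2.71 times for DDIT3. For ATF4 the ratio was 1.28. Among the 8 genes tested, scrambled replicate 3 lay within the siDHX9 range for 6 and above it for CHAC1 and STC2. It was above all DMSO libraries for each of them but ATF5, where it was below. The share of all tested entries in these positions was not counted. Averaged over the 8 genes, the log2 difference from the DMSO mean was 0.72, 0.34 and 0.74 in siDHX9 replicates 1, 2 and 3, against 2.53, 2.32 and 0.88 in the scrambled replicates. Scrambled replicates 1, 2 and 3 had ribosomal RNA shares of 5.20, 3.52 and 3.54% and mitochondrial shares of 2.87, 2.21 and 2.74% of reads, whose part in these differences was not tested.

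**Figure D3:**
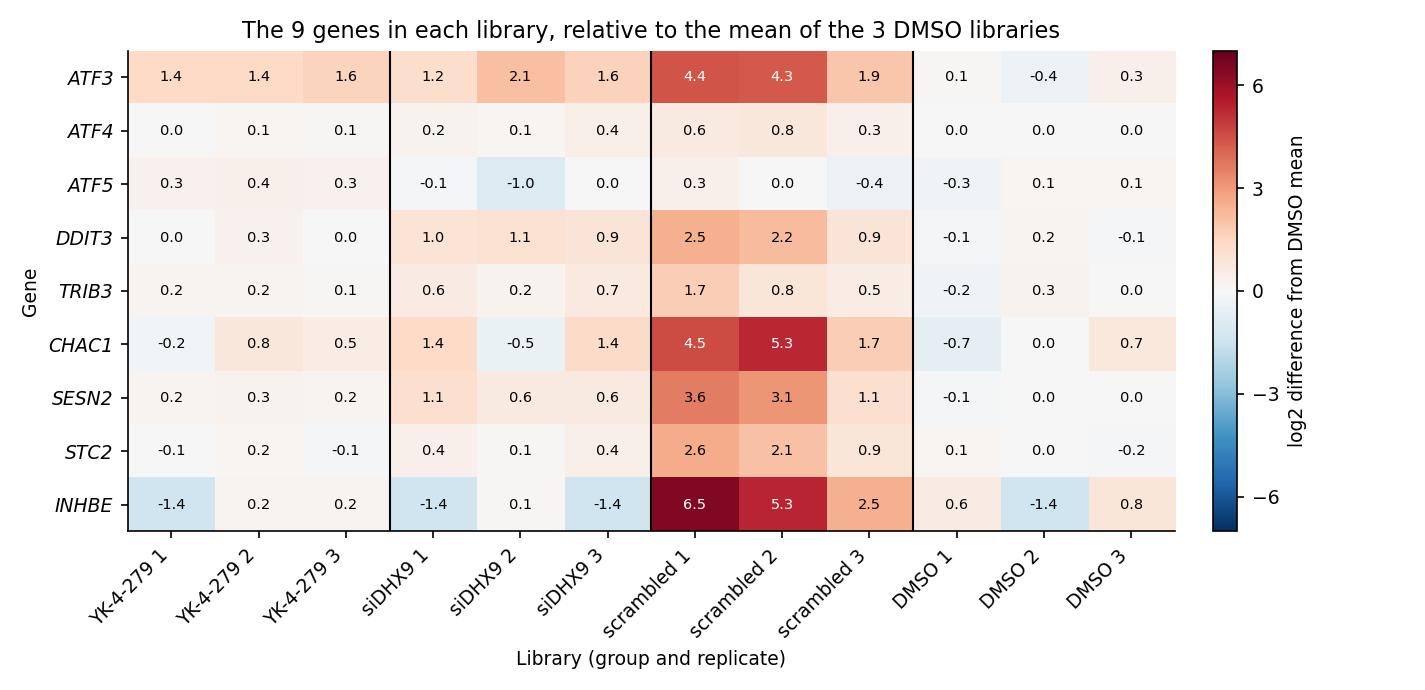
Log2 difference of each of the 9 genes (rows) from the mean of the 3 DMSO libraries, in each of the 12 libraries (columns, by group and replicate); red is higher and blue lower. The scrambled replicates 1 and 2 columns hold the highest values, up to 6.5 for INHBE, and the scrambled replicate 3 column is paler in every row but that of ATF5, where it is below DMSO.

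Scrambled minus DMSO gave a median log2 change of 1.85 over the 8 genes, against 0.02 over all tested entries. The 7 genes that rose were also the 7 whose scrambled libraries were all above the DMSO libraries, as 22.0% of tested entries were, and ATF5 was the exception. Without both scrambled replicates 1 and 2, 3 of these 7 passed (ATF3, SESN2 and STC2), and the median change over the 8 genes was 0.90. The scrambled and DMSO groups differ in transfection and in collection time, which cannot be told apart.

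YK-4-279 minus DMSO gave a median log2 change of 0.19 over the 8 genes, against 0.02 over all tested entries. The unadjusted limma p of ATF3 was 0.0131. In 4 genes (ATF3, ATF4, ATF5 and SESN2) all YK-4-279 libraries were above all DMSO libraries, where 23.2% of tested entries were. The 95% intervals of the log2 change were -0.69 to 1.13 for SESN2, -0.63 to 0.66 for STC2, -0.56 to 0.74 for DDIT3, -0.32 to 0.65 for TRIB3 and -1.17 to 1.93 for CHAC1. That of CHAC1 was the widest of these 5. These intervals rest on a spread estimated over all 4 groups, the scrambled libraries included. For SESN2 the SD of the log2 level was 0.03 with YK-4-279, 0.05 in DMSO and 1.29 in scrambled libraries.

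siDHX9 minus DMSO gave 2 genes that rose, ATF3 and DDIT3, where 8.3% of tested entries rose, and a median log2 change of 0.62 against 0.02. The siDHX9 and DMSO groups differ in the knockdown, in transfection and in collection time, which cannot be told apart. In 4 genes (ATF3, ATF4, DDIT3 and SESN2) all siDHX9 libraries were above all DMSO libraries, where 18.3% of tested entries were. CHAC1 changed by 0.76 ± 0.72 (limma adjusted p = 0.518), with siDHX9 replicate 2 below 2 of the 3 DMSO libraries. That library was the lowest of its group for 6 of the 9 genes. The test of the drug effect minus the knockdown effect, that is YK-4-279 minus DMSO less siDHX9 minus scrambled, called 4 of the 8 genes, where 9.69% of tested entries were called: ATF3 (3.35 ± 0.71, limma adjusted p = 0.0109), CHAC1 (3.46 ± 1.02, 0.0475), SESN2 (2.02 ± 0.60, 0.0489) and STC2 (1.57 ± 0.42, 0.0327). Without scrambled replicates 1 and 2 these differences were 1.73, 1.35, 0.55 and 0.60 in that order of genes.

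Genes on either side of these regulators were counted in lists chosen with earlier results of these data known. Among 30 ATF4 targets of amino acid supply, 16 fell and 0 rose in siDHX9 relative to scrambled libraries (median log2 change -0.28), where 7.97% of tested entries fell. In scrambled relative to DMSO libraries 23 rose and 0 fell (median 0.52), where 9.7% of tested entries rose. The 16 became 8, 9 and 22 when scrambled replicate 1, 2 or 3 was left out, where falls over all entries went from 1134 to 580, 652 and 1285. Without both 1 and 2 the median changes were -0.11 relative to scrambled libraries and 0.29 for scrambled relative to DMSO libraries. The 4 largest called falls were those of amino acid transporters. SLC38A2, a carrier of neutral amino acids, averaged 580.1 ± 208 normalised counts in siDHX9, against 1205 ± 339 in scrambled libraries (-1.08 ± 0.27, limma adjusted p = 0.0187). SLC7A1, a carrier of cationic amino acids, averaged 332 ± 23.3 in siDHX9 and 717 ± 256 in scrambled libraries (-1.05 ± 0.21, limma adjusted p = 0.00524). SLC7A11, the cystine carrier that feeds glutathione synthesis, fell by 0.97 ± 0.27 (limma adjusted p = 0.0295), and SLC7A5, the leucine carrier, fell by 0.93 ± 0.16 (limma adjusted p = 0.00214). With YK-4-279, 1 of the 30 rose and 4 fell (median 0.01), where 7.33% of tested entries rose and 6.49% fell. SLC7A5 averaged 1455 ± 236 normalised counts with YK-4-279 and 954 ± 92.1 in DMSO libraries (0.60 ± 0.16, limma adjusted p = 0.0241). PSAT1, an enzyme of serine synthesis, averaged 2826 ± 109.7 with YK-4-279 and 4069 ± 284 in DMSO libraries (-0.52 ± 0.13, limma adjusted p = 0.0197).

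Among 15 tested effectors of stress and death under ATF4 and DDIT3, 3 fell and 0 rose in siDHX9 relative to scrambled libraries (median -0.39), where 7.97% of tested entries fell. The count of falls was 0, 0 and 5 when scrambled replicate 1, 2 or 3 was left out, where falls over all entries were 580, 652 and 1285. Without both 1 and 2 the median was 0.00. The 3 were BBC3, which encodes the death protein PUMA (122 ± 20.1 normalised counts in siDHX9 libraries, against 312 ± 176 in scrambled, -1.16 ± 0.37, limma adjusted p = 0.0461), the peptide hormone gene ADM2 (756 ± 65.2 normalised counts in siDHX9 libraries, against 1768 ± 833 in scrambled, -1.09 ± 0.28, limma adjusted p = 0.0186) and CLIC4 (-0.44 ± 0.14, limma adjusted p = 0.0429). In scrambled relative to DMSO libraries 6 of the 15 rose and 1 fell, where 9.7% of tested entries rose and 9.22% fell. With YK-4-279, 1 of the 15 rose and 0 fell, where 7.33% of tested entries rose. The 1 that rose was BCL2L11, which encodes the death protein BIM (298 ± 13.1 normalised counts with YK-4-279 and 197 ± 33.0 in DMSO libraries, 0.61 ± 0.14, limma adjusted p = 0.0135).

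The list of bZIP partners had 13 tested genes, of which 4 fell and 0 rose in siDHX9 relative to scrambled libraries (median -0.25), where 7.97% of tested entries fell. JDP2, which pairs with JUN and ATF proteins and represses, averaged 565 ± 66.3 normalised counts in siDHX9, against 1355 ± 557 in scrambled libraries (-1.17 ± 0.24, limma adjusted p = 0.00612). ATF7 (-0.51 ± 0.14, limma adjusted p = 0.0247), CEBPG (-0.34 ± 0.09, 0.0211) and NFE2L1 (-0.34 ± 0.11, 0.0484) were the others. The 4 became 2 and 1 when scrambled replicate 1 or 2 was left out, where falls over all entries went from 1134 to 580 and 652. Without both the median was -0.08. Among 7 tested relatives of the genes described, 1 rose and 2 fell, where 8.75% of tested entries rose and 7.97% fell. TRIB1 rose (0.44 ± 0.09, limma adjusted p = 0.00744), TRIB2 fell (-0.44 ± 0.10, 0.0101) and STC1, the relative of STC2, fell (-0.74 ± 0.17, 0.0098). Without scrambled replicates 1 and 2 the counts were 0 and 0. With YK-4-279, 1 of the 7 fell and 0 rose, where 6.49% of tested entries fell. The 1 that fell was CHAC2, the other cytosolic glutathione-degrading enzyme of the family (939 ± 39.4 normalised counts with YK-4-279 and 1425 ± 18.5 in DMSO libraries, -0.60 ± 0.13, limma adjusted p = 0.0094).

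Upstream, 16 eIF2 kinases, phosphatases and exchange factors had 0 rises and 2 falls in siDHX9 relative to scrambled libraries (median -0.08), where 7.97% of tested entries fell. The count of falls was also 2 when scrambled replicate 1, 2 or 3 was left out. Without both 1 and 2 the median was -0.04. PPP1R15B, the constitutive phosphatase subunit that reverses eIF2 phosphorylation, averaged 3764 ± 553 normalised counts in siDHX9, against 5352 ± 507 in scrambled libraries (-0.51 ± 0.10, limma adjusted p = 0.00581). EIF2S2, the beta subunit of eIF2, averaged 25460.1 ± 343 in siDHX9 and 35162 ± 759 in scrambled libraries (-0.47 ± 0.06, limma adjusted p = 0.000161). Relative to DMSO libraries 3 of the 16 fell in siDHX9 and 0 rose, where 7.33% of tested entries fell. Among the 3 were PPP1R15B (-0.56 ± 0.10, limma adjusted p = 0.00288) and EIF2S2 (-0.25 ± 0.06, 0.00933). With YK-4-279, 1 of the 16 rose and 1 fell (median -0.03), where 7.33% of tested entries rose and 6.49% fell. EIF2AK3, the kinase PERK that senses unfolded proteins, averaged 230.2 ± 42.8 with the drug and 425 ± 60.1 in DMSO libraries (-0.89 ± 0.17, limma adjusted p = 0.00418). PPP1R15A, the stress-induced phosphatase subunit GADD34, averaged 1831 ± 198 with YK-4-279 and 1239 ± 103 in DMSO libraries (0.56 ± 0.15, limma adjusted p = 0.024).

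The 17 endoplasmic reticulum chaperones and targets of XBP1 or ATF6, which belong to other arms of the unfolded protein response, did not all move in 1 direction in siDHX9. Relative to scrambled libraries 6 rose and 2 fell (median 0.18), where 8.75% of tested entries rose and 7.97% fell. Relative to DMSO 10 rose and 2 fell (median 0.30), where 8.3% of tested entries rose and 7.33% fell. The siDHX9 and DMSO groups also differ in transfection and collection time. The 10 rises over DMSO became 9, 10 and 10 when scrambled replicate 1, 2 or 3 was left out. The 6 and 2 became 1 and 1 without scrambled replicates 1 and 2. SDF2L1, a chaperone cofactor, averaged 6644 ± 812 normalised counts in siDHX9, against 3752 ± 918 in scrambled libraries (0.84 ± 0.14, limma adjusted p = 0.00193). CRELD2, a secreted protein induced by unfolded proteins, averaged 3345 ± 435 in siDHX9 and 1904 ± 161 in scrambled libraries (0.81 ± 0.10, limma adjusted p = 0.000155). PDIA6, a disulphide isomerase, fell relative to scrambled libraries (-0.68 ± 0.06, limma adjusted p = 1.25e-05). So did HERPUD1, a component of protein disposal from the endoplasmic reticulum (-0.48 ± 0.10, limma adjusted p = 0.00782). PDIA6 averaged 14625 in siDHX9, 23499 in scrambled and 24452 in DMSO libraries. HERPUD1 averaged 4671, 6583 and 3355 in that order, so its siDHX9 mean was above that of DMSO. With YK-4-279, CRELD2 (0.42 ± 0.10, limma adjusted p = 0.0117) and HYOU1 (0.34 ± 0.07, 0.00936) were the 2 of the 17 that rose, where 7.33% of tested entries rose.

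**Figure D4:**
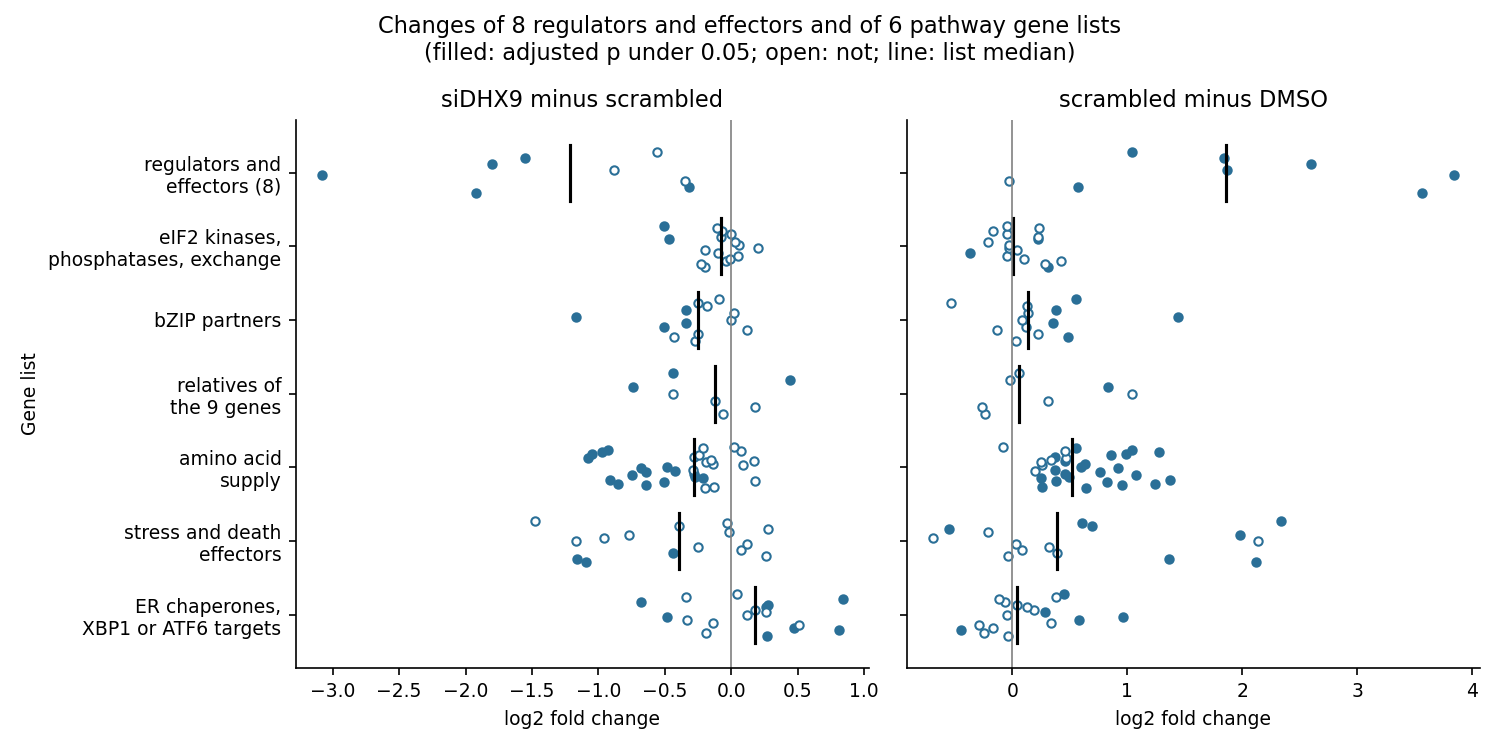
Log2 fold change of the tested genes of each list (rows) in siDHX9 minus scrambled (left) and scrambled minus DMSO (right); each point is a gene, filled at an adjusted p under 0.05, and the black line is the list median. Both panels rest on the same scrambled libraries: the 8 regulators and effectors tested have medians of -1.22 and 1.85, the 30 amino acid supply genes -0.28 and 0.52.

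The entries whose profile over the 12 libraries was closest to that of CHAC1 were found by the root mean square difference of log2 profiles, each centred and divided by its SD, among entries that name 1 gene and reach a mean of 100 in some group. This is a description over 12 libraries, in which the scrambled libraries weigh most. Outside the 9 genes the closest were PIGL (0.23), JDP2 (0.26), STC1 (0.33), GPT2 (0.34) and MARS (0.34). PIGL makes glycosyl anchors of membrane proteins, GPT2 is a mitochondrial alanine transaminase and MARS charges methionine tRNA. The entries of PIGL and of MARS overlap neighbouring entries, among them that of DDIT3 for MARS. JDP2 had 480, 521 and 489 normalised counts in YK-4-279 libraries, 618, 490.3 and 586 in siDHX9 libraries, 1847, 1468 and 750.2 in scrambled libraries and 443, 423 and 546 in DMSO libraries, again with scrambled replicates 1 and 2 above replicate 3. Among all 14224 other tested entries, ATF4 ranked 3, SESN2 4, STC2 10, DDIT3 38, ATF3 58, TRIB3 90 and ATF5 4878 in closeness to CHAC1. No rank is given for INHBE, which passed the minimum mean only through its scrambled libraries.

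**Figure D5:**
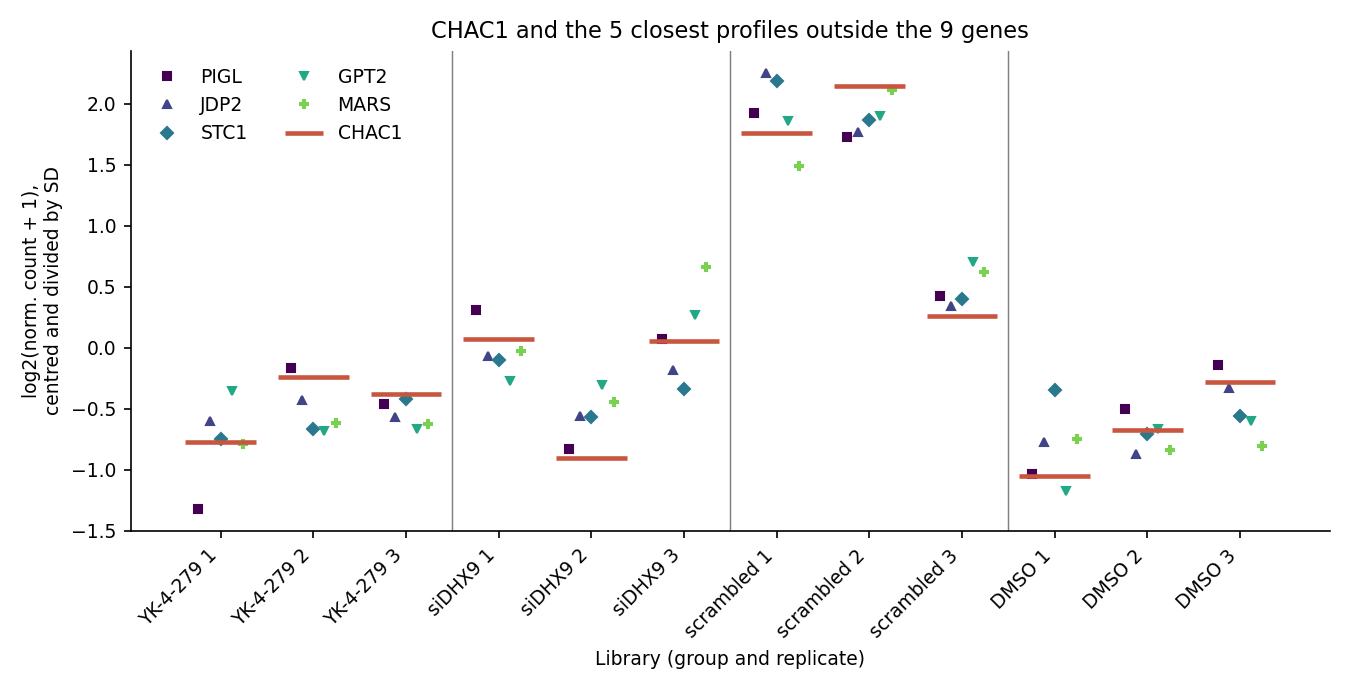
Profiles of CHAC1 (red bars) and of the 5 closest entries outside the 9 genes (symbols) over the 12 libraries, as log2(normalised count + 1) centred and divided by its SD for each entry. All 6 are highest in scrambled replicates 1 and 2, and scrambled replicate 3 lies between those and the DMSO libraries.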

How the data were processed

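The table deposited by the authors holds 1 signal value per gene entry and library, a count divided by a DESeq size factor per the file headers and the submitters' processing notes. Those notes name FastQC, Picard, SAMtools, STAR 2.4.0, DESeq and the hg19 build, without order or settings. No source used here states the counting rule or whether it used strand. The table has 78885 entries, 25787 of them with a symbol.

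From the deposited signal, whole reads were recovered (100% of values within 0.1) for depth, edgeR 4.0.16 and DESeq2 1.42.0. Named entries with a mean of at least 10 were fitted in limma 3.58.1 (R 4.3.3) on log2(value + 1), with a mean-variance trend and 1 mean for each of the 4 groups, 8 residual degrees of freedom and two-sided p values adjusted by Benjamini-Hochberg over 14225 entries. Read ratios of INHBE pool the libraries of a group and carry no test.

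The genes, lists and alternatives were chosen with earlier results of these data known. From each list the text names genes that reach a mean of 100 in the higher group: up to 4 called genes for siDHX9 minus scrambled and up to 2 for YK-4-279 minus DMSO, by size of change. Alternatives were other added values, minimum means, scalings and tools, only the libraries compared, a replicate block, unnamed entries, and libraries left out.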

Additional observations from a re-analysis of the deposited data

Results flagged for a closer look

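For 4 of the 8 genes tested the effect of YK-4-279 relative to DMSO differed from that of siDHX9 relative to scrambled libraries in the test of the difference itself (limma, Benjamini-Hochberg over all tested entries). ATF3 differed by 3.35 ± 0.71 on the log2 scale (adjusted p = 0.0109), from changes of 1.43 with YK-4-279 and -1.92 in siDHX9, and is the 1 gene of the 4 called when any single library was left out. CHAC1 differed by 3.46 ± 1.02 (adjusted p = 0.0475), from 0.38 and -3.08 in that order of effects. SESN2 differed by 2.02 ± 0.60 (adjusted p = 0.0489), from 0.22 and -1.80. STC2 differed by 1.57 ± 0.42 (adjusted p = 0.0327), from 0.02 and -1.55. The negative values are relative to scrambled libraries. Relative to DMSO the log2 change in siDHX9 libraries was 1.63 for ATF3, 0.76 for CHAC1, 0.79 for SESN2 and 0.28 for STC2. In scrambled libraries it was 3.56, 3.84, 2.60 and 1.84 in that order of genes. Without scrambled replicates 1 and 2 none of the 4 was called, and the adjusted p values over all alternatives ran up to 0.0949 for ATF3, 0.447 for CHAC1, 0.322 for SESN2 and 0.201 for STC2.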

How the results depend on the processing

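Each count of called genes, over the 8 tested, was recomputed under 24 alternatives, or 23 for the difference of effects. For siDHX9 minus scrambled the 5 became 1 with only the libraries compared, 0 without scrambled replicates 1 and 2, and 1 to 7 with 1 library left out. For scrambled minus DMSO the 7 became 3 without scrambled replicates 1 and 2, and stayed 7 with any 1 library left out. For YK-4-279 minus DMSO the 0 became 1 with DESeq2, 2 with only the libraries compared, 1 without scrambled replicates 1 and 2, and 0 to 1 with 1 library left out. For siDHX9 minus DMSO the 2 became 0 with no minimum and 1 with an added value of 10, with edgeR or with the replicate block, 5 without scrambled replicates 1 and 2, and 0 to 4 with 1 library left out. For the difference of effects the 4 became 2 with no minimum, 2 with unnamed entries, 0 without scrambled replicates 1 and 2, and 1 to 7 with 1 library left out. Other alternatives added calls. For siDHX9 minus scrambled, DDIT3 was added by edgeR, DESeq2 and the replicate block, and TRIB3 by DESeq2. For siDHX9 minus DMSO, SESN2 was added with only the libraries compared and ATF4 with quantile normalisation. Quantile normalisation also added ATF4 for the difference of effects. The cause of these changes was not tested.

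Directions turned only for changes that did not pass the test as reported. With YK-4-279, STC2 (0.02) became -0.01 with TMM, -0.00 with quantile normalisation, -0.02 with edgeR, -0.00 with DESeq2, -0.07 without DMSO replicate 3 and -0.05 without YK-4-279 replicate 2, and DDIT3 became -0.03 without YK-4-279 replicate 2. With 1 library left out these changes spanned -0.07 to 0.08 for STC2 and -0.03 to 0.19 for DDIT3. In siDHX9 minus scrambled without scrambled replicates 1 and 2, ATF5 became 0.05 and DDIT3 0.07. In scrambled minus DMSO, ATF5 became 0.03 without DMSO replicate 2, 0.04 without DMSO replicate 3 and 0.17 without scrambled replicate 3, in a span of -0.22 to 0.17. Of the gene values under alternatives, 817 kept direction and side of the threshold, 96 lost a call, 27 gained one and 12 turned.

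Same-numbered libraries correlated by -0.009 to 0.117 in YK-4-279 and DMSO and by 0.047 to 0.078 in siDHX9 and scrambled libraries. Libraries of different number correlated by -0.143 to 0.079 and by -0.094 to 0.041 in that order. In siDHX9 and scrambled libraries the same-numbered values were thus the higher ones, though small. The main fit did not take the numbers as pairs. With the replicate block 5 genes were called in siDHX9 minus scrambled, 7 in scrambled minus DMSO and 0 with YK-4-279. The 5 did not include ATF4 (adjusted p = 0.0591) and included DDIT3 (0.0476), and CHAC1 lost its call in the difference of effects (0.072). Over all entries, siDHX9 minus scrambled had 1244 rises and 1134 falls, but 294 and 198 with only its 6 libraries and 265 and 204 without scrambled replicates 1 and 2. YK-4-279 minus DMSO had 1042 rises and 923 falls, but 2325 and 1945 with only its 6 libraries. Depth limits INHBE most, with 13 reads over the 9 libraries that are not scrambled.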
